A study of Mus musculus with 24 samples.

Results

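Fggy, Hjurp, Rec8, Gon4l and Tmem267 are 5 of the 34039 genes in a table of nuclear RNA from the mouse amygdala, and they were followed here in every cell type together with the open chromatin at their ends. They were chosen by measured values, because both their RNA and the accessibility near their ends had been lower in the strain DBA than in the strain BL6. The strain difference of these genes is therefore given as a description, with no test, and only measures that the choice did not use were tested. Of 271433 peaks of accessible chromatin, 9 lay at most 2 kb from a start or far end of these genes, as RefSeq places them on mm10. The threshold of 2 kb took in a peak 1837 bases from the far end of Fggy and left out one 2286 bases from the start of Rec8 and one 2442 bases from the start of Gon4l.

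The tissue was microdissected from adult male mice of 2 inbred strains at an age of 10 to 16 weeks, and the labels give no other allele or treatment for either strain. Each library pooled about 2 animals, and each strain had 2 libraries for single-nucleus RNA sequencing and 2 for single-nucleus ATAC sequencing, which counts where chromatin is open to a transposase. Nuclei for RNA were sorted with an antibody to NeuN toward 75% neurons and 25% other cells, whereas the ATAC sort relied on a dye for DNA and no antibody. A further 16 methylation samples of 8 strains were not analysed here. RNA libraries held 30693629 to 66304405 counts from 2867 to 8079 nuclei, and ATAC libraries 66535381 to 86927891 counts from 3694 to 6943 nuclei. The counts had been summed by the authors over 22 cell types of their own naming, and here also over excitatory, inhibitory and non-neuronal classes read from those names. Non-neuronal nuclei made up 36.6% and 53.0% of the BL6 RNA libraries and 45.9% and 30.1% of the DBA RNA libraries, and 1.81% to 2.97% of the ATAC libraries. Of 24 marker genes, 22 were highest in the class they mark, and the exceptions were P2ry12, a microglial receptor gene, and Lum, a gene of fibroblast-like cells. Levels below are CPM, counts scaled to a library or class total of 1000000, and mean ± SD over n = 2 libraries. Each p-value rests on the spread between these pooled libraries. The fits draw that spread from all genes or peaks together, not from the tested one alone. For peaks the shared part dominates, so small p-values there look firmer than 2 libraries per strain alone would give. The RNA counts of the strains do not rest on one gene list. Of 23 genes listed under both an old and a new symbol, such as March1 and Marchf1, 23 had counts under the old symbol in BL6 alone and under the new one in DBA alone, and 2200 of 18917 genes with 100 or more DBA counts had 0 BL6 counts, against 96 of 17525 in the other direction. The same counts for peaks were 53 of 212652 and 287 of 227378. The build in the submitters' notes, mm10, is an assembly of a BL6 strain, and whether reads of both strains were aligned to the same genome and gene models is not given in the sources used here. The part of either in the RNA and ATAC values of the 5 genes was not tested; no synonym of the 5 genes that RefSeq lists had a row of its own. In sums over nuclei, fewer nuclei that hold a transcript and less transcript per nucleus cannot be told apart.

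A gene's start is usually marked in nuclei of every type by a stretch of open chromatin where transcription factors and the polymerase assemble, and the far end is open less often. Fggy encodes a carbohydrate kinase that phosphorylates the sugar ribulose. Hjurp encodes the chaperone that deposits the histone variant CENP-A at centromeres, and Rec8 the cohesin subunit that holds sister chromatids together in meiosis; both are best known from dividing cells. Gon4l encodes a nuclear regulator of transcription that associates with YY1, SIN3A and HDAC1, and Tmem267 a transmembrane protein.

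The promoters are shown because the peaks at these starts are where both strains were measured. Each holds 250 bases before to 50 after a start in RefSeq on GRCm38.p6, the assembly behind mm10, written 5′ to 3′ on the gene's strand. All 5 genes matched the RefSeq promoter table, with 2 starts each for Fggy and Tmem267. Capitals mark every match, on either strand, to CCAAT (the CCAAT box), GGGCGG (the GC box), TGACGTCA (the cAMP response element), TATAAA (the TATA box), AAGATGGC (YY1), CCGGAAG (ETS factors) or CACGTG (the E-box).
Fggy, chr4:95557257-95557556, plus strand: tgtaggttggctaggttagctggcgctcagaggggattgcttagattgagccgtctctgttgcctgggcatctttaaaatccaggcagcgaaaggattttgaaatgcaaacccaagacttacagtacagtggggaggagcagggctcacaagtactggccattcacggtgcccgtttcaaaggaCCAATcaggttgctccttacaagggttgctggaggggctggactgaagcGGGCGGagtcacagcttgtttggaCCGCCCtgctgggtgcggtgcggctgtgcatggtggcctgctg
Hjurp, chr1:88277530-88277829, minus strand: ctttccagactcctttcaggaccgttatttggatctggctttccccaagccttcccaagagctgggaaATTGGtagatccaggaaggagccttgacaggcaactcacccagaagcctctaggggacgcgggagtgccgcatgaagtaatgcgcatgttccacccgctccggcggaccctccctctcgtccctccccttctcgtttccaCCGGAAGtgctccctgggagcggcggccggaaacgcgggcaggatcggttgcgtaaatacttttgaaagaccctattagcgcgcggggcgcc
Rec8, chr14:55617916-55618215, plus strand: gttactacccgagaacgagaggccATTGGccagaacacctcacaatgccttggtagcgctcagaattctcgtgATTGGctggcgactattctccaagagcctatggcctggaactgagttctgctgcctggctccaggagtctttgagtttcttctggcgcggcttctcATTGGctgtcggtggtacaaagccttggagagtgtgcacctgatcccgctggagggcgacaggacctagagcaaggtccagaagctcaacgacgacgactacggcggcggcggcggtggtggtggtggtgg
Gon4l, chr3:88834981-88835280, plus strand: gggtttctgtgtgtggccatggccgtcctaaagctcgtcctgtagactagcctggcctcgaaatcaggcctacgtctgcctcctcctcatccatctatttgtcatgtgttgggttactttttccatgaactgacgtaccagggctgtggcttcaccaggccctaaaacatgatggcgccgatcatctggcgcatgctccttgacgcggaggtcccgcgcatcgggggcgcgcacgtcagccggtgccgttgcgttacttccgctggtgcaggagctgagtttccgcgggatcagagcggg
Tmem267 first start, chr13:119487836-119488135, plus strand: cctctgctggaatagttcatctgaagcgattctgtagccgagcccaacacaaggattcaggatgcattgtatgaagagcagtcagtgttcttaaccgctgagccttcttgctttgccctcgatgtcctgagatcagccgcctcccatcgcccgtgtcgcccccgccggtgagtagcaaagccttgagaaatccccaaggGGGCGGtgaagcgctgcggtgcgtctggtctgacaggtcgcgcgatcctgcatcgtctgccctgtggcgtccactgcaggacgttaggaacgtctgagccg
Tmem267 second start, chr13:119488223-119488522, plus strand: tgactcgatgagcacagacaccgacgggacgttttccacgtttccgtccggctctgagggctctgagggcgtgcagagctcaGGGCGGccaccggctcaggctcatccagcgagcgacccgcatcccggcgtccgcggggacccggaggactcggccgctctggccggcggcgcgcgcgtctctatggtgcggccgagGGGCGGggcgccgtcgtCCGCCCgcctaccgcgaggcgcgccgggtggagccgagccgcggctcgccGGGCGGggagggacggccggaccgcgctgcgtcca

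The 6 printed promoters lay wholly inside a peak, and the second start of Fggy, at chr4:95579171-95579470, overlapped none. Fggy held a CCAAT match 66 bases before the start and GC box matches 17 bases before it and at base 8 after it. Hjurp held a CCAAT match 182 bases and an ETS match 42 bases before the start. Rec8 held 3 CCAAT matches, all on the reverse strand, 226, 177 and 81 bases before the start. Gon4l held no match, which says only that these letters are not in this window. Tmem267 held 1 GC box match at its first start and 4 at its second. Over 32851 promoters of the same length, 37.4% held CCAAT, 35.7% the GC box, 8.86% the ETS letters, 1.79% the cAMP response element, 13.6% the TATA box, 2.75% the YY1 letters and 7.15% the E-box. GC content was 56% at Fggy, 59.67% at Hjurp, 58.33% at Rec8, 59.33% at Gon4l, and 58.67% and 76% at the first and second start of Tmem267, against a median of 52.67% over all promoters. CpG dinucleotides numbered 10 at Fggy, 22 at Hjurp, 18 at Rec8, 23 at Gon4l and 22 and 50 at Tmem267, and the median over all promoters was 7.

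Fggy RNA, the sugar kinase transcript, was nearly missing from DBA. Over all nuclei it stood at 57.7 and 51.7 CPM in BL6 libraries 2 and 3 and 2.24 and 2.19 CPM in DBA libraries 2 and 3, from 3826 and 1587 counts in BL6 and 72 and 111 in DBA. Both DBA libraries lay far below both BL6 libraries, at 4.05% of the BL6 mean (54.7 ± 4.24 against 2.22 ± 0.0343 CPM, fitted log2 difference -4.58, SE 0.15). By class, BL6 and DBA held 54.5 ± 6.19 and 2.57 ± 0.338 CPM in excitatory neurons, 39.2 ± 10.2 and 2.12 ± 0.522 CPM in inhibitory neurons, and 79.8 ± 6.18 and 1.7 ± 1.05 CPM in non-neuronal nuclei. DBA kept 4.71%, 5.4% and 2.13% of the BL6 level in these classes, and the strains overlapped in none of them. Both DBA libraries lay below both BL6 libraries for 21.1% of all genes with counts, so the separation alone is common in this table, and DBA was under 50% of BL6 for 4.64% of genes with 100 or more BL6 counts.

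Hjurp, the CENP-A chaperone gene, was counted in both strains at 42 and 45.2 CPM in BL6 libraries 2 and 3 and 14.4 and 13.5 CPM in DBA libraries 2 and 3 (2783 and 1387 counts in BL6 and 464 and 683 in DBA). The 2 libraries of each strain lay close together, and DBA was at 32% of BL6 (43.6 ± 2.27 against 14 ± 0.673 CPM, log2 difference -1.59, SE 0.11). By class, BL6 and DBA held 35.2 ± 0.556 and 13.1 ± 0.925 CPM in excitatory neurons, 45.5 ± 3.39 and 13.9 ± 0.0759 CPM in inhibitory neurons, and 54.4 ± 0.581 and 15.8 ± 0.816 CPM in non-neuronal nuclei. The share left in DBA was 37.2%, 30.6% and 29.2%, again with no overlap of the strains in any class.

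Rec8, the meiotic cohesin gene, had the fewest counts of the 5 genes, 374 and 213 counts in BL6 and 17 and 62 in DBA. These were 5.64 and 6.94 CPM in BL6 libraries 2 and 3 and 0.529 and 1.22 CPM in DBA libraries 2 and 3. DBA stood at 13.9% of BL6 (6.29 ± 0.918 against 0.877 ± 0.492 CPM, log2 difference -2.73, SE 0.37), and its 2 libraries differed more from each other, relative to their mean, than those of any of the other genes. By class, BL6 and DBA held 9.91 ± 3.22 and 1.17 ± 1.11 CPM in excitatory neurons, 5.99 ± 1.08 and 0.857 ± 0.0253 CPM in inhibitory neurons, and 1.62 ± 0.453 and 0.137 ± 0.00129 CPM in non-neuronal nuclei. Non-neuronal nuclei held 22 and 12 Rec8 counts in BL6 and 1 in each DBA library, so most Rec8 RNA was counted in neurons.

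Gon4l, the nuclear regulator, had the most counts of the 5, 7565 and 3260 counts in BL6 and 1024 and 1610 in DBA. Its levels were 114 and 106 CPM in BL6 libraries 2 and 3 and 31.9 and 31.8 CPM in DBA libraries 2 and 3, and the DBA libraries were nearly equal. DBA held 28.9% of the BL6 level (110.2 ± 5.57 against 31.8 ± 0.0508 CPM, log2 difference -1.74, SE 0.10). By class, BL6 and DBA held 117 ± 8.49 and 33.6 ± 2.89 CPM in excitatory neurons, 114 ± 3.73 and 30.3 ± 1.7 CPM in inhibitory neurons, and 92.8 ± 3.46 and 32.7 ± 0.987 CPM in non-neuronal nuclei. The share left in DBA was 28.8%, 26.7% and 35.3%, the last being the highest.

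Tmem267, the membrane protein gene, showed the smallest RNA difference of the 5. It stood at 9.97 and 9.81 CPM in BL6 libraries 2 and 3 and 4.08 and 4.94 CPM in DBA libraries 2 and 3, from 661 and 301 counts in BL6 and 131 and 250 in DBA. DBA held 45.6% of BL6 (9.89 ± 0.115 against 4.51 ± 0.608 CPM, log2 difference -1.08, SE 0.19). By class, BL6 and DBA held 10.3 ± 0.605 and 4.11 ± 1.3 CPM in excitatory neurons, 10.1 ± 0.469 and 4.73 ± 0.156 CPM in inhibitory neurons, and 7.89 ± 1.55 and 4.58 ± 0.527 CPM in non-neuronal nuclei. The strains did not overlap in any class, and DBA held 40%, 46.7% and 58.1% of the BL6 level. The plot of RNA by class shows these values library by library.

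**Figure D1:**
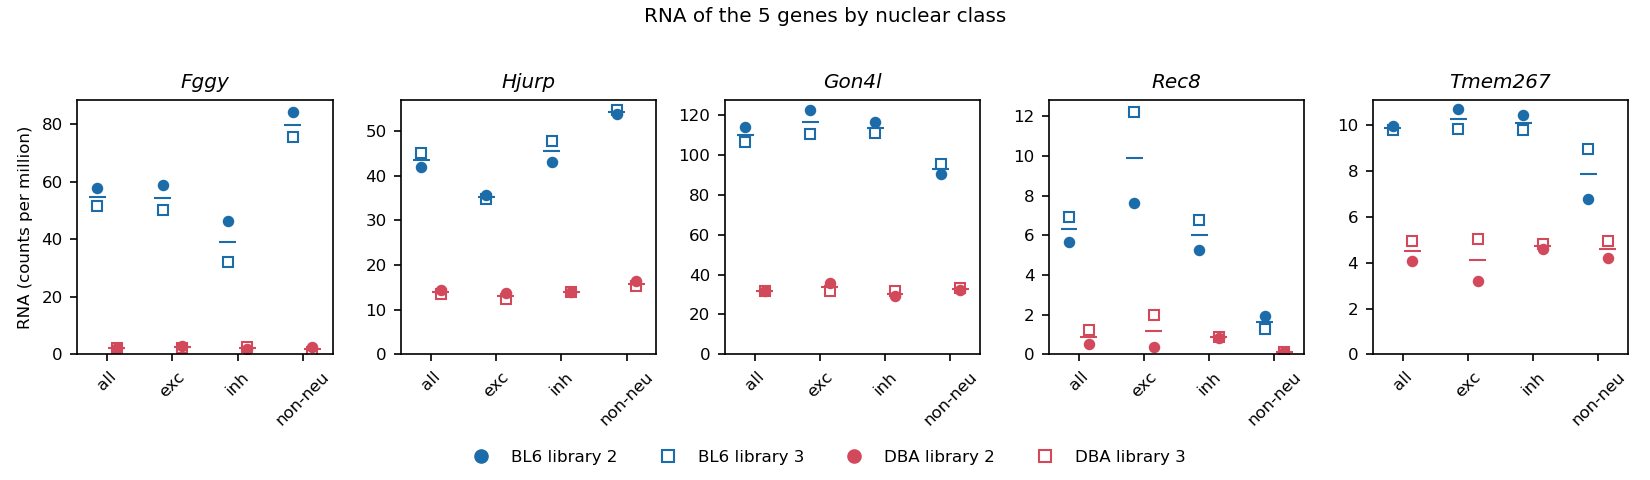
RNA of each gene in CPM (y axis, 1 scale per gene) over all nuclei and in excitatory, inhibitory and non-neuronal nuclei (x axis); each point is 1 library and each short line the mean of 2. The DBA points lie below the BL6 points in every class of all 5 genes, and the distance is widest for Fggy, at 4.05% of the BL6 mean over all nuclei.

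Of the 22 cell types, 20 had 10 or more nuclei and 50000 or more RNA counts in each of the 4 libraries and were used: 5 excitatory, 8 inhibitory, 6 non-neuronal and the type Neuronal-Aldoa-Cst3. Both DBA libraries were below both BL6 libraries in 20 of 20 types for Gon4l, 19 for Fggy, 19 for Hjurp, 17 for Rec8 and 13 for Tmem267, and the reverse was seen in none. Over all genes and these types, 18.2% of values had both DBA libraries below both BL6 libraries.

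In BL6, Fggy was highest in astrocytes and oligodendrocytes and lowest in one inhibitory type, while other non-neuronal types lay among the neuronal ones. In excitatory types its BL6 level was 58.3 ± 5.44 in Exc-Tfap2c, 58.3 ± 7.72 in Exc-Vwa5b1, 53.8 ± 5.44 in Exc-Abi3bp, 53.1 ± 6.19 in Exc-Tafa1 and 39.2 ± 4.97 in Exc-Ebf2 CPM. In inhibitory types it was 72.8 ± 1.96 in Inh-Lypd6b, 56.9 ± 1.78 in Inh-Nxph2, 55.5 ± 6.19 in Inh-Zfhx3, 49 ± 14 in Inh-Sst, 29.8 ± 4.69 in Inh-Htr3a, 26 ± 6.77 in Inh-Drd2, 26 ± 2.35 in Inh-Lamp5 and 7.07 ± 0.11 in Inh-Tshz1 CPM. Non-neuronal types held 103 ± 10.5 in NN-Astro, 81.6 ± 2.12 in NN-ODC, 68.7 ± 14.4 in NN-MGC, 42.9 ± 4.62 in NN-OPC, 28.6 ± 0.0306 in NN-VLMC and 28.2 ± 39.9 in NN-Endo-VLMC CPM, and Neuronal-Aldoa-Cst3 held 44 ± 5.62 CPM. Astrocytes (NN-Astro) stood above oligodendrocytes (NN-ODC), which stood above Inh-Lypd6b, with no overlap of libraries. Of the 19 pairs of types that follow each other in this order, 4 did not overlap, the last being Inh-Lamp5 above Inh-Tshz1, and the other neighbours did not differ beyond their spread. In DBA the levels ran from 0 to 5.53 CPM with a median of 1.93, against a median of 51.1 CPM in BL6. Inh-Tshz1, the type with the least Fggy in BL6, kept the largest share in DBA, 43%, from 38 and 22 BL6 counts and 9 and 17 DBA counts, while the median share over types was 3.29%. The type that overlapped was NN-Endo-VLMC, with 0 and 10 BL6 counts.

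Hjurp was counted in every type of both strains. In excitatory types its BL6 level was 50.8 ± 5.27 in Exc-Vwa5b1, 47.4 ± 9.31 in Exc-Ebf2, 42.3 ± 3.9 in Exc-Abi3bp, 23.8 ± 9.68 in Exc-Tfap2c and 20.2 ± 1.85 in Exc-Tafa1 CPM. In inhibitory types it was 63.4 ± 17.3 in Inh-Lypd6b, 63.2 ± 12.5 in Inh-Sst, 53.4 ± 5.91 in Inh-Htr3a, 49.8 ± 23.3 in Inh-Lamp5, 48.2 ± 3.04 in Inh-Nxph2, 40.4 ± 1.08 in Inh-Zfhx3, 34.3 ± 3.59 in Inh-Tshz1 and 27.4 ± 10 in Inh-Drd2 CPM. Non-neuronal types held 94.9 ± 70.4 in NN-Endo-VLMC, 74.8 ± 6.0 in NN-OPC, 70.9 ± 4.49 in NN-MGC, 46.8 ± 3.37 in NN-Astro, 46.2 ± 0.798 in NN-ODC and 40.2 ± 16.6 in NN-VLMC CPM, and Neuronal-Aldoa-Cst3 held 37.3 ± 1.89 CPM. Exc-Tafa1 was the lowest type. Of the 19 neighbouring pairs in this order, 1 did not overlap, NN-ODC above Exc-Abi3bp. DBA levels ran from 4.49 to 35.5 CPM, and the share left in DBA from 11.2% in NN-VLMC to 88.7% in Exc-Tfap2c, with a median of 32.9%. Exc-Tfap2c, the type in which the strains overlapped, held 9 and 3 counts in BL6 and 5 and 5 in DBA.

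Rec8 was a neuronal transcript in BL6, with its highest level in the excitatory type Exc-Vwa5b1. In excitatory types its BL6 level was 21.5 ± 9.33 in Exc-Vwa5b1, 18.7 ± 21.6 in Exc-Tfap2c, 8.66 ± 6.84 in Exc-Ebf2, 8.26 ± 1.98 in Exc-Abi3bp and 2.6 ± 0.913 in Exc-Tafa1 CPM. In inhibitory types it was 14.6 ± 9.08 in Inh-Lypd6b, 11.2 ± 6.05 in Inh-Lamp5, 7.83 ± 0.376 in Inh-Nxph2, 6.73 ± 2.69 in Inh-Zfhx3, 6.71 ± 2.81 in Inh-Sst, 4.05 ± 1.77 in Inh-Drd2, 3.55 ± 1.59 in Inh-Htr3a and 2.78 ± 0.33 in Inh-Tshz1 CPM. Non-neuronal types held 2.82 ± 3.99 in NN-Endo-VLMC, 1.99 ± 0.333 in NN-OPC, 1.62 ± 1.38 in NN-ODC, 1.6 ± 0.062 in NN-Astro, 0.429 ± 0.606 in NN-MGC and 0 ± 0 in NN-VLMC CPM, and Neuronal-Aldoa-Cst3 held 5.14 ± 4.45 CPM. Of the 19 neighbouring pairs, 1 did not overlap, NN-Astro above NN-MGC, the microglia. DBA held 0 counts in both libraries in 9 of 20 types, and the highest DBA level was 4.16 CPM in Inh-Lamp5. In Exc-Vwa5b1, BL6 had 133 and 84 counts and DBA 4 and 27. The types without a clear separation were NN-Endo-VLMC, NN-MGC and NN-VLMC, with at most 1 count in any library.

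Gon4l had the narrowest range between types relative to its level. In excitatory types its BL6 level was 171 ± 30 in Exc-Tfap2c, 119.8 ± 14.8 in Exc-Vwa5b1, 115 ± 4.01 in Exc-Tafa1, 108 ± 13 in Exc-Ebf2 and 108 ± 10.6 in Exc-Abi3bp CPM. In inhibitory types it was 130.0 ± 8.17 in Inh-Sst, 122 ± 17 in Inh-Htr3a, 117 ± 47.1 in Inh-Lypd6b, 114 ± 4.1 in Inh-Zfhx3, 114 ± 34.1 in Inh-Drd2, 113 ± 16.1 in Inh-Lamp5, 112 ± 7.25 in Inh-Nxph2 and 98.5 ± 0.113 in Inh-Tshz1 CPM. Non-neuronal types held 126 ± 51.3 in NN-Endo-VLMC, 119.6 ± 1.85 in NN-MGC, 119 ± 7.47 in NN-VLMC, 96.9 ± 6.44 in NN-OPC, 89.5 ± 0.308 in NN-Astro and 81.1 ± 7.29 in NN-ODC CPM, and Neuronal-Aldoa-Cst3 held 106 ± 14.6 CPM. Of the 19 neighbouring pairs, 3 did not overlap: Exc-Tfap2c above Inh-Sst, NN-OPC above NN-Astro, and NN-Astro above NN-ODC. In DBA the levels ran from 19 to 49.3 CPM, and the share left lay between 12.6% in Exc-Tfap2c and 39.2% in NN-Astro, with a median of 29.9%.

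Tmem267 was counted in every type of both strains. In excitatory types its BL6 level was 11.4 ± 0.99 in Exc-Vwa5b1, 10.3 ± 0.467 in Exc-Tafa1, 10.2 ± 0.0111 in Exc-Abi3bp, 9.06 ± 3.18 in Exc-Tfap2c and 7.5 ± 7.43 in Exc-Ebf2 CPM. In inhibitory types it was 11.5 ± 2.44 in Inh-Drd2, 11 ± 0.643 in Inh-Tshz1, 10.9 ± 3.21 in Inh-Zfhx3, 10.3 ± 0.413 in Inh-Nxph2, 9.07 ± 3.45 in Inh-Lamp5, 7.62 ± 0.227 in Inh-Sst, 7.12 ± 0.938 in Inh-Htr3a and 6.92 ± 3.85 in Inh-Lypd6b CPM. Non-neuronal types held 8.73 ± 1.67 in NN-OPC, 8.41 ± 0.977 in NN-MGC, 7.55 ± 1.25 in NN-ODC, 7.53 ± 1.63 in NN-Astro, 2.82 ± 3.99 in NN-Endo-VLMC and 2.6 ± 3.67 in NN-VLMC CPM, and Neuronal-Aldoa-Cst3 held 18.9 ± 7.2 CPM. Of the 19 neighbouring pairs, 1 did not overlap, Neuronal-Aldoa-Cst3 above Inh-Drd2. The share left in DBA had a median of 55.9% and ran from 28.1% in Exc-Tafa1 to 256% in NN-Endo-VLMC. The types above 100% were NN-Endo-VLMC and NN-VLMC, with at most 2 counts in any library.

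**Figure D2:**
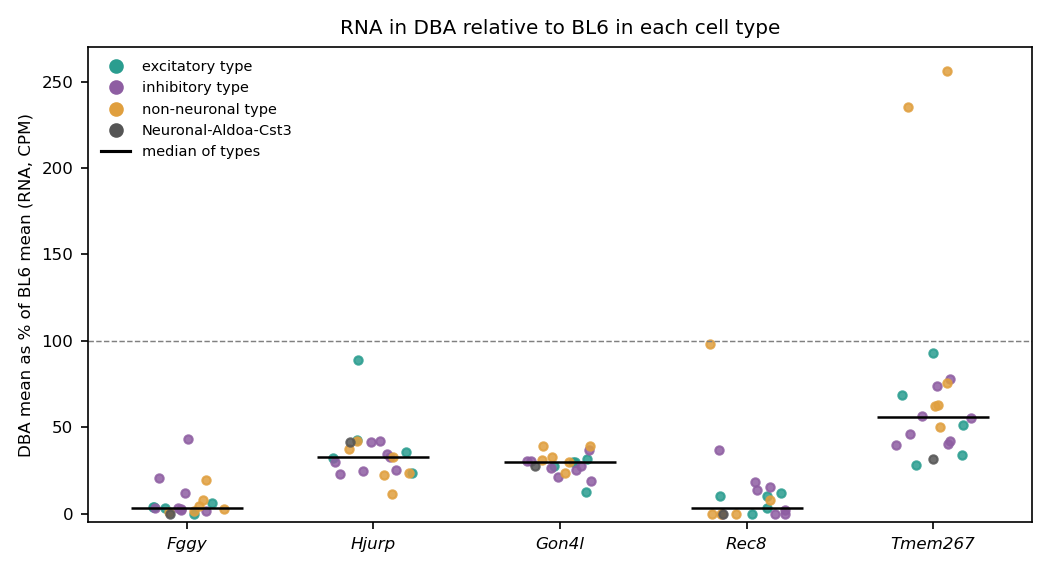
DBA RNA as a percentage of BL6 RNA (y axis, means of 2 libraries in CPM) for each gene (x axis); each point is a cell type coloured by class, the line is the median of types and the dashed line marks 100%. Medians lie at 3.29% for Fggy and 3.47% for Rec8, at 32.9% for Hjurp and 29.9% for Gon4l, and at 55.9% for Tmem267, whose 2 points above 100% are vascular types with at most 2 counts per library.

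Where the 5 genes are expressed was not used to choose them, and was tested over both strains with edgeR's quasi-likelihood test on the class sums, each library being a block and p-values adjusted over 22561 genes (Benjamini-Hochberg). Rec8 was lower in non-neuronal nuclei than in the mean of both neuronal classes (log2 -2.62, SE 0.41, adjusted p = 4.45e-05), as was Gon4l by a smaller amount (log2 -0.26, SE 0.058, adjusted p = 0.000874). Hjurp was higher in non-neuronal nuclei (log2 0.21, SE 0.063, adjusted p = 0.00755). These are 3 of 5 genes, where 68.3% of all genes tested were called in this contrast. For Fggy and Tmem267 the values were 0.037 (SE 0.20, adjusted p = 1) and -0.30 (SE 0.13, adjusted p = 0.0583). The Fggy value averages the strains with equal weight. In BL6, Fggy stood at 79.8 CPM in non-neuronal nuclei, above 54.5 and 39.2 CPM in excitatory and inhibitory neurons, without overlap of libraries. In DBA it stood at 1.7 CPM in non-neuronal nuclei, from 18 and 7 counts, against 2.57 and 2.12 CPM, with overlap. The Hjurp call was lost with DESeq2 (adjusted p = 0.0615) and without DBA library 3 (0.051), and Tmem267 was called without BL6 library 3 (0.0198).

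Between excitatory and inhibitory neurons, edgeR called none of the 5 genes, against 26.3% of all genes tested; 4 had an unadjusted p under 0.05, and DESeq2 called none. The differences were 0.70 for Rec8 (SE 0.25, adjusted p = 0.0579), 0.38 for Fggy, 0.14 for Gon4l, -0.18 for Hjurp and -0.015 for Tmem267 on the log2 scale, excitatory minus inhibitory. The Rec8 value turned on the DBA libraries: it was 0.97 and called without DBA library 2 (adjusted p = 0.0244) and -0.15 without DBA library 3.

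The size of the strain difference was compared between classes by interaction terms of the same fit. For Gon4l, DBA kept a larger share of RNA in non-neuronal nuclei than in neurons (log2 0.48, SE 0.12, adjusted p = 0.0295), the 1 call among the 5 genes against 4.49% of all genes tested. It was lost with DESeq2 (adjusted p = 0.119), with total counts alone (0.0924), and without BL6 library 2 (0.194), DBA library 2 (0.128) or DBA library 3 (0.268). The Fggy term had the opposite sign and did not pass (log2 -1.12, SE 0.37, adjusted p = 0.121), and Hjurp, Rec8 and Tmem267 gave -0.084, -0.51 and 0.57. Between excitatory and inhibitory neurons edgeR called no interaction among the 5 genes, with 0 at an unadjusted p under 0.05 and 0 by DESeq2, and 0.0266% of all genes tested were called. In simulated data, that excitatory against inhibitory interaction was recovered for 8% of 2-fold and 67% of 4-fold changes, in genes drawn from all those fitted.

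Lower accessibility in DBA, the property that helped to choose these genes, was found at their starts over all nuclei. Far ends could be compared within 2 kb for Fggy and Tmem267 alone. All 6 peaks within 2 kb of a start were lower in both DBA libraries than in both BL6 libraries, and at the 3 peaks within 2 kb of a far end the strains overlapped. No peak lay within 2 kb of the far end of Hjurp, Rec8 or Gon4l. A peak 3450 bases from the far end of Hjurp, described below, stood at 36.1% of BL6. Over all nuclei, both DBA libraries lay below both BL6 libraries for 27% of all peaks, and DBA was under 50% of BL6 for 1.42% of peaks with 100 or more BL6 counts. The peak over the start of Fggy, chr4:95556818-95558818, held 1693 and 2044 counts in BL6 and 180 and 163 in DBA, or 23.4 and 23.5 CPM in BL6 libraries 2 and 3 and 2.24 and 2.45 CPM in DBA libraries 2 and 3. DBA stood at 10.0% of BL6 (23.4 ± 0.104 against 2.34 ± 0.15 CPM, log2 difference -3.28, SE 0.12). The RNA of Fggy kept a smaller share, 4.05%. The peak inside Fggy near its far end, chr4:95923976-95925102, held 436 and 629 counts in BL6 and 469 and 442 in DBA, and here the libraries of the strains overlapped, with DBA at 94.1% of BL6 (log2 -0.052, SE 0.11). In excitatory neurons that peak was lower in DBA without overlap, at 84.4% of BL6. It stood at 107% in inhibitory and 109% in non-neuronal nuclei, with overlap.

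The start of Hjurp lay under chr1:88276634-88278465, the peak with the most counts of the 9, 8525 and 10975 counts in BL6 and 6030 and 4811 in DBA. In CPM these were 118 and 126 CPM in BL6 libraries 2 and 3 and 75 and 72.3 CPM in DBA libraries 2 and 3, so that the strains did not overlap but DBA kept 60.4% (log2 -0.68, SE 0.11). Its RNA kept 32.0%, a smaller share. The start of Rec8 had 2 peaks. The one over the start itself, chr14:55617733-55618238, held 360 and 483 counts in BL6 and 90 and 73 in DBA, with DBA at 21.1% (log2 -2.2, SE 0.15). The one 572 bases inside the gene, chr14:55618574-55618993, held 138 and 202 counts in BL6 and 67 and 69 in DBA and stood at 44.2% (log2 -1.15, SE 0.19). Neither overlapped between strains.

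Gon4l differed from the other genes in that its start peak was not counted in DBA at all. The peak chr3:88834841-88835459 held 254 and 336 counts in BL6 and 0 and 0 in DBA, or 3.51 and 3.87 CPM in BL6 libraries 2 and 3 and 0 and 0 CPM in DBA libraries 2 and 3. Taking 3 counts over both DBA libraries as the most that 0 allows, DBA was at least 181-fold lower, a bound that covers counting error only. Gon4l RNA stood at 28.9% of BL6. Of peaks with 100 or more BL6 counts, 0.126% held 0 counts in both DBA libraries. Whether DBA reads could be aligned at the Gon4l start peak was not tested.

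The start of Tmem267 lay under chr13:119487145-119489280, the longest of the 9 peaks at 2135 bases, with 3532 and 4525 counts in BL6 and 1764 and 1494 in DBA. DBA was at 44% of BL6 (50.4 ± 2.34 against 22.2 ± 0.369 CPM, log2 -1.14, SE 0.10), close to the 45.6% of its RNA. At the far end, chr13:119609369-119609945 held 131 and 131 counts in BL6 and 145 and 157 in DBA, with DBA at 126% of BL6 (log2 0.37, SE 0.17). The other far-end peak, chr13:119610011-119611053, held 227 and 216 counts in BL6 and 191 and 184 in DBA, at 91.5% (log2 -0.082, SE 0.15). In both, the CPM values of the strains overlapped.

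Across the 16 cell types with enough ATAC nuclei and counts, the peak over the start was lower in both DBA libraries than in both BL6 libraries in 16 types for Fggy, 15 for Hjurp, 15 for Gon4l, 15 for Tmem267 and 13 for Rec8, where 18% of all peak and type values were. The Fggy start was most open in NN-OPC, the oligodendrocyte precursors, at 41.1 CPM in BL6 from 11 and 18 counts, and least in Inh-Tshz1 at 9.55 CPM, the type with the least Fggy RNA. Inh-Tshz1 held 62 and 124 counts in BL6 and 41 and 18 in DBA at that peak. The share left in DBA ran from 1.67% to 35.3% for Fggy, from 38% to 99.3% for Hjurp and from 29.6% to 78.6% for Tmem267. Both ends of the Hjurp range came from glia, NN-MGC and NN-OPC, with 17 to 82 counts per library. For Rec8 the median was 19.2%, and NN-OPC, where DBA was above BL6, held at most 2 counts per library. The Gon4l start held 0 DBA counts in every type.

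**Figure D3:**
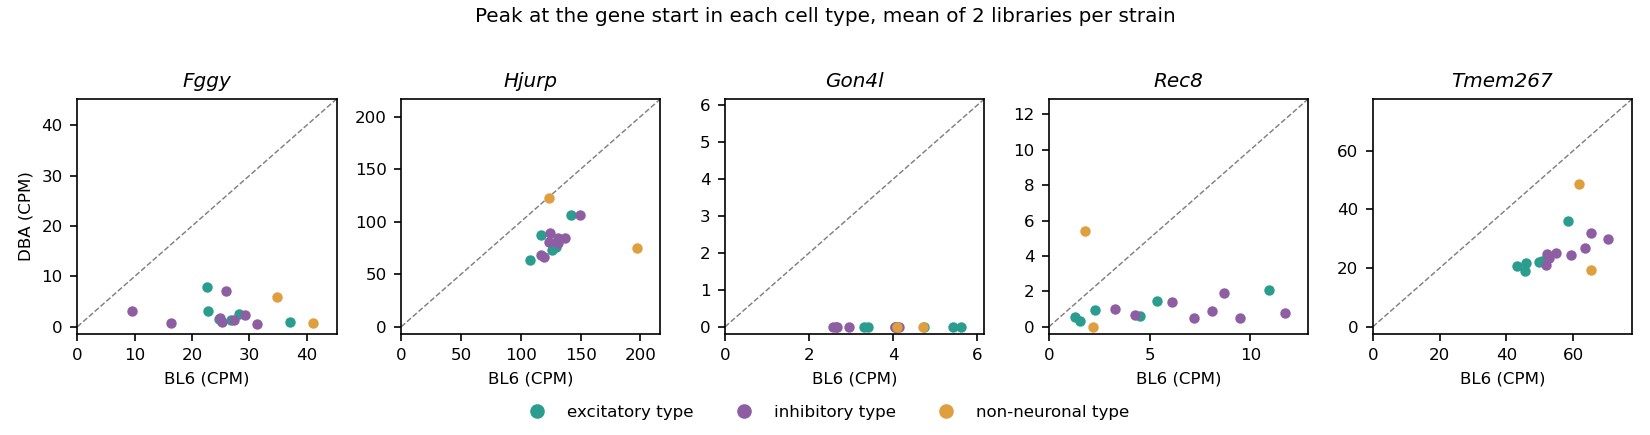
Accessibility of the peak over each gene's start in DBA (y axis) against BL6 (x axis), in CPM as means of 2 libraries; each point is 1 of 16 cell types coloured by class, and the dashed line marks equal values. The Gon4l points lie at 0 on the DBA axis, and nearly all others lie under the line, with Hjurp the closest to it; the Rec8 point above the line is NN-OPC.

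Which class the end peaks were open in was tested over both strains in the same way, with adjustment over 271243 peaks, for the 8 peaks counted in both strains. The starts of Tmem267 (log2 -0.30, SE 0.054, adjusted p = 2.03e-07), Hjurp (log2 -0.21, SE 0.046, adjusted p = 1.38e-05) and Rec8 (log2 -0.43, SE 0.16, adjusted p = 0.0153) were less open in excitatory than in inhibitory neurons. The outer far-end peak of Tmem267, chr13:119610011-119611053, was more open in excitatory neurons (log2 0.47, SE 0.15, adjusted p = 0.00334). These were 4 of 8 peaks, and 58.2% of all peaks tested were called. DESeq2 called 1 of the 8, the Tmem267 far end, with adjusted p = 0.0537 at the start of Tmem267, 0.287 at Hjurp and 0.113 at Rec8. The Rec8 call was also lost with total counts alone (0.0543), without BL6 library 2 (0.097) and without DBA library 3 (0.102), and that of the Tmem267 far end without BL6 library 3 (0.0582). The Fggy start was called with total counts alone (0.0319) and without DBA library 2 (0.042).

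Non-neuronal nuclei were more open than neurons at the starts of Hjurp (log2 0.33, SE 0.078, adjusted p = 0.000395) and Tmem267 (log2 0.33, SE 0.12, adjusted p = 0.0315) and at the far-end peak of Fggy (log2 0.63, SE 0.23, adjusted p = 0.0325), 3 of 8 peaks against 21.2% of all peaks tested. Hjurp thus differed between non-neuronal nuclei and neurons in the same direction in RNA and at its start. These calls rested on few non-neuronal nuclei. Without 1 library they were lost at Hjurp (adjusted p = 0.159 without BL6 library 3 and 0.191 without DBA library 3), at Tmem267 (0.413 without BL6 library 3 and 0.282 without DBA library 2) and at Fggy (0.427 without BL6 library 2 and 0.27 without DBA library 3). No end peak had a strain difference that differed between classes in either interaction, with 0 of 8 called by edgeR, 0 at an unadjusted p under 0.05 and 0 by DESeq2, and 0.135% and 0.000369% of all peaks called. Simulated interactions between excitatory and inhibitory neurons were recovered for 1% of 2-fold and 40% of 4-fold changes of ATAC counts. The changed peaks were drawn from all those fitted, so recovery at the 8 end peaks was not measured. Interactions with non-neuronal nuclei were not simulated. In the fit, the SE of the excitatory against inhibitory interaction ran from 0.092 at the Hjurp start to 0.40 at the Rec8 peak chr14:55618574-55618993.

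Across the 15 types used in both assays, RNA and the accessibility of the start in BL6 followed each other to a different degree in each gene. Spearman's rho over these types was 0.67 for Rec8, 0.56 for Hjurp, 0.45 for Fggy, 0.13 for Gon4l and -0.52 for Tmem267. Within the 13 neuronal types it was 0.51, 0.64, 0.49, 0.27 and -0.45. The types share libraries and differ in depth, so these values describe the types and carry no p. Tmem267 alone had a negative value in both.

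Accessibility farther from the ends was not used to choose the genes and was tested. These peaks lie beside ends chosen for lower accessibility, so their differences may not be independent of that choice. Inside the 5 genes and up to 100 kb on either side, 210 peaks lay over 2 kb from an end. With edgeR's quasi-likelihood test, adjusted over 271420 peaks, 40 were lower in DBA and 1 was higher, where 3.23% of all peaks tested were lower and 3.21% higher. DESeq2 called 26 lower and 0 higher, and 25 were lower without BL6 library 2. The median log2 difference of the 210 was -0.086, against 0.0019 over all peaks. The lower peaks were spread unevenly: 15 lay around Gon4l, 11 around Tmem267, 7 around Hjurp, 7 around Fggy and 0 around Rec8.

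Upstream of Gon4l a run of peaks was open in BL6 and not counted in DBA. Whether DBA reads could be aligned at these peaks, or at others with 0 DBA counts, was not tested. Of 27 upstream peaks, 14 were lower in DBA, and 11 of these held 0 DBA counts, with 223 to 1898 BL6 counts each. The nearest was chr3:88832316-88832765 (820 and 1078 BL6 counts, at least 583-fold lower, adjusted p = 8.54e-221), followed by chr3:88831524-88832068 (478 and 615 BL6 counts, at least 336-fold lower, adjusted p = 2.67e-154). Farther out lay chr3:88827186-88827888 (168 and 202 BL6 counts, at least 114-fold lower, adjusted p = 6.66e-65), chr3:88825755-88826262 (172 and 193 BL6 counts, at least 112-fold lower, adjusted p = 3.10e-64), chr3:88818060-88819176 (178 and 236 BL6 counts, at least 127-fold lower, adjusted p = 3.07e-71) and, apart from the rest, chr3:88784703-88786431 (471 and 502 BL6 counts, at least 299-fold lower, adjusted p = 5.23e-142). Chosen after its values were seen, the peak chr3:88822663-88823293 (157 and 168 counts in BL6, 21 and 25 in DBA) lay within the run and kept counts in DBA. Inside Gon4l 1 of 19 peaks was lower, chr3:88866196-88866815 (204 and 241 counts in BL6, 107 and 105 in DBA, log2 -0.90, SE 0.17, adjusted p = 2.70e-06), and of 16 downstream 0 were called, with 1 at an unadjusted p under 0.05 and 0 by DESeq2. Peaks with 0 DBA counts made up 11 of the 55 peaks around Gon4l with 100 or more BL6 counts, 20%, against 0.126% of all such peaks.

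Tmem267 had its lower peaks inside the gene toward the far end. Of 6 peaks inside it, 5 were lower in DBA, among them chr13:119601279-119602491 (417 and 488 counts in BL6, 45 and 56 in DBA, log2 -2.99, SE 0.17, adjusted p = 2.21e-66), chr13:119596295-119597145 (307 and 360 counts in BL6, 49 and 36 in DBA, log2 -2.81, SE 0.18, adjusted p = 6.62e-49), chr13:119597525-119598270 (509 and 576 counts in BL6, 176 and 156 in DBA, log2 -1.55, SE 0.13, adjusted p = 1.45e-29) and, chosen after its values were seen, chr13:119598565-119598778 (75 and 106 counts in BL6, 14 and 16 in DBA, log2 -2.41, SE 0.30, adjusted p = 2.03e-13). Between them, chr13:119599851-119600342 (126 and 132 BL6 counts, at least 79.3-fold lower, adjusted p = 3.45e-47) held no DBA count. These 5 peaks lay 7968 to 13314 bases before the far end, where the end peaks themselves overlapped between strains. Chosen after its values were seen, the 1 higher peak, chr13:119603161-119603452 (12 and 35 counts in BL6, 44 and 46 in DBA, log2 1.11, SE 0.33, adjusted p = 0.0145), also lay here, and was not called by DESeq2. Downstream, 6 of 21 peaks were lower, led by chr13:119631433-119632110 (1197 and 1462 counts in BL6, 158 and 110 in DBA, log2 -3.15, SE 0.12, adjusted p = 1.24e-126) and chr13:119661454-119661661 (143 and 169 BL6 counts, at least 95.9-fold lower, adjusted p = 4.85e-56), and of 11 upstream 0 were called, with 1 lower and 1 higher at an unadjusted p under 0.05 and 0 by DESeq2.

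Inside Hjurp there was 1 peak, near the far end, and it was lower in DBA: chr1:88262306-88262913 (799 and 754 counts in BL6, 293 and 231 in DBA, log2 -1.42, SE 0.12, adjusted p = 5.32e-31). Around Hjurp, 3 of 14 upstream and 3 of 8 downstream peaks were lower, such as chr1:88352812-88353546 (241 and 280 counts in BL6, 122 and 114 in DBA, log2 -0.98, SE 0.16, adjusted p = 3.97e-08), chr1:88287710-88288033 (203 and 211 counts in BL6, 100 and 113 in DBA, log2 -0.79, SE 0.17, adjusted p = 9.02e-05) and chr1:88211547-88212725 (146 and 142 counts in BL6, 74 and 53 in DBA, log2 -1.03, SE 0.20, adjusted p = 1.41e-05). The third upstream, chosen after its values were seen, was chr1:88301011-88301888 (332 and 356 counts in BL6, 255 and 214 in DBA, log2 -0.39, SE 0.13, adjusted p = 0.0433). The remaining ones, chr1:88224302-88224506 and chr1:88223215-88223452, had adjusted p = 0.0247 and 0.0253 and held at most 65 counts per library. Both lost their call with DESeq2 (0.514 and 0.45), without BL6 library 2 (0.334 and 0.233), without BL6 library 3 (0.167 and 0.261) and without DBA library 3 (0.30 and 0.0593), and the second also without DBA library 2 (0.080).

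Within the long body of Fggy, 7 of 46 peaks were lower in DBA, by far less than the start. The clearest was chr4:95728548-95729101 (189 and 151 counts in BL6, 80 and 74 in DBA, log2 -0.99, SE 0.19, adjusted p = 5.48e-06), and the other 5 named, chr4:95737132-95737371, chr4:95679492-95680043, chr4:95702770-95704086, chr4:95636614-95637655 and chr4:95588577-95589337, fell by between 0.93 and 0.40 on the log2 scale (adjusted p 0.00721 to 0.0476). DESeq2 called 1 of the 7. Without BL6 library 2 all 6 named calls were lost, with adjusted p of 0.121 for the clearest and 0.289 to 0.849 for the others. In the flanks of Fggy 0 of 17 peaks were called, with 2 lower at an unadjusted p under 0.05 and 0 by DESeq2. Around Rec8, 0 of 24 peaks were called in either direction, with 0 at an unadjusted p under 0.05 and 0 by DESeq2, and no peak lay inside the gene beyond 2 kb of its ends. At Rec8 the difference was therefore seen at the 2 start peaks alone among the peaks measured within 100 kb.

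**Figure D4:**
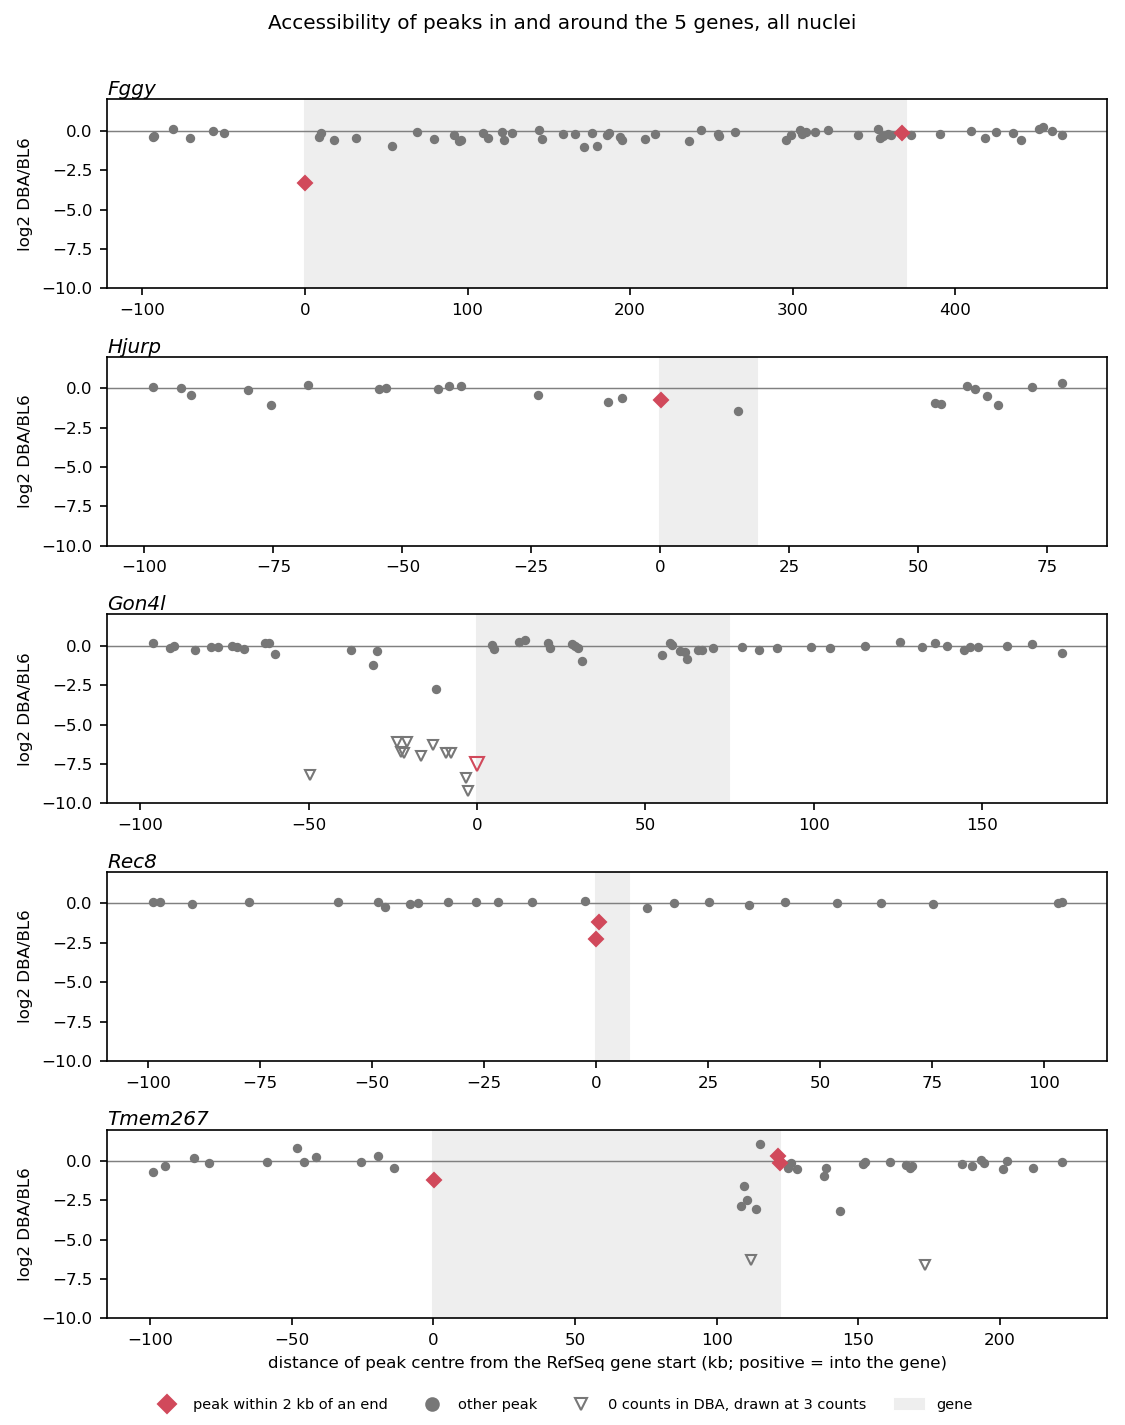
Difference in accessibility between strains (y axis, log2 of DBA over BL6 in CPM, from counts pooled over both libraries of a strain, all nuclei) for every peak from 100 kb before to 100 kb after each gene (x axis, distance of the peak centre from the RefSeq start in kb, positive into the gene). Diamonds are peaks within 2 kb of an end, grey points other peaks, open triangles peaks with 0 DBA counts drawn at 3 counts, and the shaded band the gene; the triangles form a run before Gon4l, and at Rec8 the 2 diamonds alone stand away from 0.

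RNA of genes within 100 kb of the 5 genes was not used in the choice either. As neighbours of chosen genes, they may not be independent of that choice. Of 43 neighbours with a row in the table, 37 could be tested with edgeR, with adjustment over 25329 genes. DBA was lower for 6 and higher for 1, where 5.69% of all genes tested were lower and 18.3% higher. Of the 36 counted in both strains, 6 were lower and none was higher, against 5.73% and 3.42%. DESeq2 called 4 lower and 1 higher. When genes counted in both strains alone were fitted, 2 were lower and 0 higher. In that edgeR fit 1500004A13Rik and Ccl28, described below, kept their calls. The calls of Dap3 (adjusted p = 0.106), Mroh2a (0.0643), 9530080O11Rik (0.121) and 1700074H08Rik (0.132) were lost, with nearly unchanged log2 values.

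Beside Gon4l, the long noncoding RNA 1500004A13Rik was lower in DBA (12345 and 5731 counts in BL6, 2484 and 3592 in DBA, log2 -1.28, SE 0.10, adjusted p = 5.35e-05), and its body, chr3:88805289-88832547, spans most of the run of peaks with 0 DBA counts. 5830417I10Rik, a transcribed pseudogene at chr3:88777057-88829371 that overlaps it, held counts in DBA alone (0 and 0 counts in BL6, 635 and 865 in DBA, log2 12.71, SE 0.45, adjusted p = 8.58e-06). It is one of the 2200 genes with 100 or more DBA counts and 0 BL6 counts. Whether counting used strand is not given in the sources used here, so reads of these overlapping genes cannot be told apart. Dap3, a mitochondrial ribosome gene 10704 bases beyond Gon4l, was lower by less (3048 and 1557 counts in BL6, 1089 and 1876 in DBA, log2 -0.40, SE 0.11, adjusted p = 0.0342), a call lost without BL6 library 3 (0.107), DBA library 2 (0.228) or DBA library 3 (0.10). Msto1, which overlaps the far end of Gon4l, had log2 0.14 (SE 0.12, adjusted p = 0.53).

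Near Tmem267, the chemokine gene Ccl28 was lower in DBA (370 and 155 counts in BL6, 50 and 80 in DBA, log2 -1.71, SE 0.22, adjusted p = 0.000762), and the peak chr13:119631433-119632110 lay inside it. The call for Ccl28 held under all 11 alternatives (adjusted p 3.44e-07 to 0.0146). The noncoding 1700074H08Rik, 69583 bases away, was lower too (95 and 41 counts in BL6, 23 and 17 in DBA, log2 -1.41, SE 0.40, adjusted p = 0.0383), but not with DESeq2 (0.0813), without BL6 library 2 (0.090) or without DBA library 3 (0.282). The nearest genes at the start of Tmem267 did not pass: 4833420G17Rik had log2 -0.25 (SE 0.10, adjusted p = 0.112), and 3110070M22Rik, whose body overlaps the start, log2 -0.44 (SE 0.40, adjusted p = 0.573).

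Mroh2a overlaps the far end of Hjurp, and its counts were lower in DBA (170 and 77 counts in BL6, 35 and 60 in DBA, log2 -1.1, SE 0.25, adjusted p = 0.0133), with the same limit on overlapping reads, and not without DBA library 2 (0.11) or DBA library 3 (0.099). Trpm8, the cold receptor gene on the other side, had log2 0.26 (SE 0.36, adjusted p = 0.74). Beside Fggy, the noncoding 9530080O11Rik was lower (140 and 67 counts in BL6, 33 and 58 in DBA, log2 -0.93, SE 0.25, adjusted p = 0.0345), and the call was lost with DESeq2 (0.10) and without any 1 of the 4 libraries (0.0734 to 0.211). Hook1, a microtubule adaptor gene, had log2 0.28 (adjusted p = 0.268) and was higher in DBA without BL6 library 2 (0.0066). Rec8 sits among 18 tested neighbours, and 0 of them were called in either direction, with 0 at an unadjusted p under 0.05 and 0 by DESeq2. The closest, Ipo4 and Irf9, had log2 -0.24 (SE 0.15) and 0.11 (SE 0.21).

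**Figure D5:**
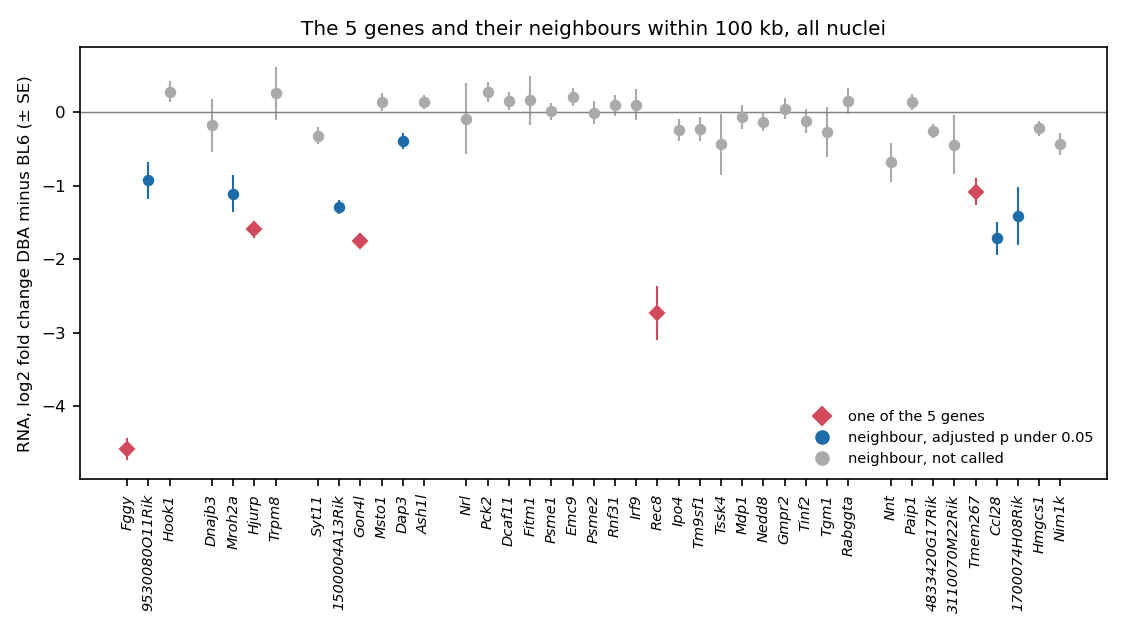
RNA difference between strains over all nuclei (y axis, log2 DBA minus BL6, bars ± SE from the fit) for the 5 genes (diamonds) and their tested neighbours counted in both strains (points), in order along each chromosome (x axis). Blue points have an adjusted p under 0.05; the neighbours of Rec8 lie close to 0 on both sides of it, while 2 neighbours each of Gon4l and Tmem267 are blue and lower.

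Other genes of the pathways were given by lists that leave out the 5 genes, and were tested in the same fit over all nuclei. Their tested members all had counts in both strains, and among such genes 5.73% of all tested were lower in DBA and 3.42% higher (5.69% and 18.3% of all genes tested), so a count of 0 or 1 called gene in lists of 12 to 23 lies near the share over all genes. Of 23 genes that load CENP-A or form the inner kinetochore with Hjurp, edgeR called 0 in either direction, with 1 lower at an unadjusted p under 0.05 and 0 by DESeq2; their median log2 difference was 0.028, against 0.040 over all 25329 genes tested and -0.011 over the 21161 counted in both strains. Of 19 tested cohesin genes beside Rec8, 2 were higher and 1 lower at an unadjusted p under 0.05, and DESeq2 called 0 in either direction. After adjustment edgeR called 1 higher in DBA and 0 lower, with a median of 0.0041. That call was lost when edgeR fitted genes counted in both strains alone (adjusted p = 0.137). The higher one was Rad21l, like Rec8 a cohesin subunit of meiosis (1.63 and 1.63 CPM in BL6, 2.65 and 2.94 CPM in DBA, log2 0.83, SE 0.23, adjusted p = 0.0403), and its call was lost with DESeq2 (0.0767) and without any 1 of the 4 libraries (0.0957 to 0.269).

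Of 12 other genes listed as sugar kinases, 1 was higher and 1 lower at an unadjusted p under 0.05, and DESeq2 called 1 higher and 0 lower. After adjustment edgeR called 0 lower and 1 higher in DBA, against the same 5.73% and 3.42% of genes counted in both strains, with a median of -0.028. This was Glyctk, glycerate kinase (2.68 and 4.14 CPM in BL6, 12 and 7.07 CPM in DBA, log2 1.55, SE 0.32, adjusted p = 0.00831), which was not called without DBA library 2 (0.067). Of 12 partners of Gon4l and related regulators, 2 were lower and 0 higher at an unadjusted p under 0.05, and DESeq2 called 1 lower and 0 higher. After adjustment edgeR called 1 lower and 0 higher, again near those shares, with a median of 0.0083. The lower gene was Hdac1, a histone deacetylase (32.3 and 37.9 CPM in BL6, 24.6 and 25 CPM in DBA, log2 -0.45, SE 0.12, adjusted p = 0.0284), a call lost without BL6 library 3 (0.125), DBA library 2 (0.149) or DBA library 3 (0.142). The Hdac1 call was also lost when edgeR fitted genes counted in both strains alone (adjusted p = 0.0927). No list was drawn up for Tmem267.

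The genes whose level followed each member most closely were found by Pearson's r of log2(CPM + 1) over 80 columns, 20 types in 4 libraries, after the mean of each strain was taken off, among genes at 10 CPM or more in both strains. They were A230056P14Rik (r = 0.60) and Sgta (r = 0.59) for Fggy, Plekhj1 (r = 0.67) and Gdap2 (r = 0.67) for Hjurp, Abcg4 (r = 0.65) and Rims3 (r = 0.64) for Rec8, Larp1 (r = 0.51) and Socs7 (r = 0.50) for Gon4l and Zfp335os (r = 0.74) and Slc37a3 (r = 0.73) for Tmem267. The columns share libraries and differ in depth, so r is a description. Gon4l had the lowest values of the 5.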

How the data were processed

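Single-nucleus RNA and ATAC libraries of the amygdala of BL6 and DBA mice were used, 4 per assay. The files hold raw counts of RNA per gene and of ATAC per peak, which the authors added up within each of their cell types for every library, per the file headers; the number of nuclei behind each sum is also deposited. In the submitters' processing notes, RNA was handled with Cell Ranger 6.0.2 and with Seurat 4.0.5, ATAC with Cell Ranger ATAC 2.0.0, and the build was mm10. Filters on nuclei, doublet removal, strandedness, the gene models, whether they and the genome were the same for both strains, the peak caller and whether peak coordinates start at 0 or 1 are not given in the sources used here. Doublets were not sought, since the values are sums. Libraries are numbered 2 and 3 in the tables but 1 and 2 in the sample titles, so columns were assigned to strain and assay alone, from their names, and libraries keep the tables' numbers.

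Counts were summed by library and by class (excitatory, inhibitory, non-neuronal) and fitted with edgeR 4.0.16 in R 4.3.3: TMM factors, filterByExpr with a minimum of 10 counts, robust quasi-likelihood, and Benjamini-Hochberg adjustment over all genes or peaks tested. Class contrasts and interactions had the library as a block, and strain contrasts had none. SE is the absolute log2 difference over the square root of F. Shares of all genes or peaks called are those of this main fit. DESeq2 1.42.0, other size factors, no filter, genes with 10 or more counts in each strain, a replicate block, ends of 10 kb and leaving out each library were the alternatives. A peak with 0 counts was bounded at 3 counts over both libraries, which covers counting error only. A type was used when each of its 4 columns held 10 or more nuclei and 50000 RNA or 100000 ATAC counts. The fits were tested on simulated data, with the same spread beyond counting error for every gene or peak. False calls made up from 0% of calls (ATAC interaction of strain with the neuronal classes) to 9.09% (RNA strain contrast).

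The 5 genes and all lists were chosen with earlier results of these data known. Named features were the 5 genes, every peak within 2 kb of their ends, up to 6 called peaks per gene by smallest p, called neighbours with the 2 nearest tested genes, and up to 4 called members per list, and others are marked as chosen after their values were seen. Library numbers did not pair the libraries: deviations of same-numbered libraries from their strain means had a correlation of -0.45 over 12972 genes and -0.12 over 40933 peaks. Promoters and gene positions are from RefSeq, GRCm38.p6. The 16 methylation samples were not used here.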

Additional observations from a re-analysis of the deposited data

Results flagged for a closer look

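The strain difference of Gon4l RNA differed between non-neuronal nuclei and neurons by an interaction term, with a value of 0.48 on the log2 scale (edgeR's quasi-likelihood test, adjusted p = 0.0295). All other class interactions of the 5 genes and of the 8 end peaks fitted missed the threshold with edgeR.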

How the results depend on the processing

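Of 1170 values recomputed for 122 results, 991 were the same as in the main fit, 36 changed sign, and 0 of those belonged to a result that had been called. For tests, same meant the direction and side of the threshold were kept. For counts of calls it meant a count close to the main one. For strain differences of the 5 genes and end peaks it meant a shift smaller than the spread between libraries. The cause of the changes below was not tested. The share of all genes or peaks called under each alternative fit is not given here. Changes in the counts below are therefore not results about these genes or peaks. With DESeq2, the Hjurp RNA difference between non-neuronal nuclei and neurons was 0.21 and the Gon4l interaction 0.47, both no longer called; 1 end peak was called between excitatory and inhibitory neurons; 26 peaks beyond the ends were lower and 0 higher; and 0 cohesin genes were higher. With total counts alone, the Hjurp RNA difference between excitatory and inhibitory neurons was -0.23 and called, the Gon4l interaction 0.35 and not called, 0 peaks beyond the ends and 0 cohesin genes were higher, and 1 cohesin gene and 1 sugar kinase were lower. The interaction of the Hjurp start peak between non-neuronal nuclei and neurons changed sign to 0.0086 with DESeq2 and 0.045 with total counts alone. Without a filter, Rec8 was called between excitatory and inhibitory neurons at 0.69 and Tmem267 between non-neuronal nuclei and neurons at -0.32, 2 neighbours were higher, and 1 cohesin gene and 1 sugar kinase were lower. With genes counted in both strains, Tmem267 was called at -0.31, 2 neighbours were lower and 0 higher, 0 cohesin genes were higher and 0 regulators of the Gon4l list lower. With ends of 10 kb, a window that takes in more peaks than the 8 of the main fit, 13 end peaks were called between the neuronal classes. Between non-neuronal nuclei and neurons 5 were called. Of all peaks tested, 58.2% and 21.2% were called in these contrasts. With this window 0 peaks beyond the ends were higher.

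With the replicate block, 2 neighbours were lower, 0 cohesin genes and 0 sugar kinases higher and 0 regulators of the Gon4l list lower; same-numbered libraries did not deviate together, so the numbers do not pair them. With the numbers crossed as a replicate block, chosen after seeing the data, 3 peaks beyond the ends were higher, 10 neighbours, 1 CENP-A gene, 1 cohesin gene, 2 sugar kinases and 2 regulators of the Gon4l list lower, and 2 cohesin genes higher.

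Leaving out 1 library at a time gave, between excitatory and inhibitory neurons in RNA, Rec8 -0.15 to 0.97, Tmem267 -0.20 to 0.092. For ATAC between excitatory and inhibitory neurons it gave the Rec8 peak chr14:55618574-55618993 -0.31 to 0.031. For RNA between non-neuronal nuclei and neurons it gave Fggy -0.38 to 0.33, Hjurp 0.21 to 0.23, Tmem267 -0.42 to -0.16. For ATAC between non-neuronal nuclei and neurons it gave the Rec8 peak chr14:55617733-55618238 -0.12 to 0.30, the Rec8 peak chr14:55618574-55618993 -4.66 to 0.0087, the Tmem267 peak chr13:119610011-119611053 -0.50 to 0.64. For RNA in the interaction of strain with the neuronal classes it gave Fggy -0.56 to 0.22, Gon4l -0.038 to 0.26, Rec8 -1.78 to 0.47, Tmem267 -0.55 to 0.033. For ATAC in the interaction of strain with the neuronal classes it gave the Fggy peak chr4:95556818-95558818 -0.25 to 0.37, the Hjurp peak chr1:88276634-88278465 -0.10 to 0.014, the Tmem267 peak chr13:119487145-119489280 -0.060 to 0.056. For RNA in the interaction of strain with non-neuronal nuclei it gave Gon4l 0.39 to 0.57, Rec8 -0.99 to 0.29. For ATAC in the interaction of strain with non-neuronal nuclei it gave the Fggy peak chr4:95923976-95925102 -0.32 to 0.82, the Hjurp peak chr1:88276634-88278465 -0.29 to 0.23, the Rec8 peak chr14:55618574-55618993 -5.84 to 9.38, the Tmem267 peak chr13:119609369-119609945 -0.62 to 7.65, the Tmem267 peak chr13:119610011-119611053 -1.17 to 1.1. The strain differences ranged over -0.18 to 0.44 for Irf9, -0.091 to 0.86 for Trpm8, -1.82 to -1.67 for Gon4l RNA, -0.19 to 0.11 for the Fggy far end and -0.23 to 0.070 for the outer Tmem267 far end. The counts ranged over 1 to 2 end peaks called between non-neuronal nuclei and neurons, 25 to 37 peaks beyond the ends lower and 0 to 1 higher, 2 to 5 neighbours lower and 1 to 2 higher, 0 to 1 CENP-A genes lower, 0 to 1 cohesin genes lower and 0 to 0 higher, 0 to 1 sugar kinases lower and 0 to 1 higher, and 0 to 2 regulators of the Gon4l list lower.

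Non-neuronal nuclei were few in the ATAC libraries and Rec8 counts were low, which limits the precision of both.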
